A study of Mus musculus with 8 samples.

Results

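The BCL2 family decides whether a cell under stress opens its mitochondria and dies. Of its genes, 10 were followed in single colonic myeloid cells of mice with and without induced deletion of CD98hc, the heavy chain of a transporter of branched-chain amino acids. They are listed by name as pro- and anti-apoptotic genes of the family, with no threshold on a measured value but with earlier results of these data known, and are 10 of the 16889 genes with a unique molecular identifier (UMI) in the deposited matrix. The survival genes were Bcl2a1a, Bcl2a1b, Bcl2a1d, Bcl2l1 (BCL-XL), Bcl2 and Mcl1, and the death genes were the effectors Bax and Bak1 and the BH3-only genes Bid and Bcl2l11 (BIM). All 10 passed the filter on low values in every comparison below.

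All animals were female CD98hcΔCX3CR1 littermates, 6 to 12 weeks old, that carried floxed CD98hc alleles (CD98hc flox/flox) and Cx3cr1CreER-YFP, a tamoxifen-dependent Cre under the Cx3cr1 promoter. Tamoxifen in corn oil was injected on 5 days into 4 mice (cKO, mice 5 to 8), and corn oil alone into 4 others (control, mice 1 to 4). Cells of the colonic lamina propria that were CD11b+ and CCR2+ or CD64+ were sorted at day 7, and each mouse filled 1 well of a droplet device, on the same day. No control mouse received tamoxifen, so what the drug does and what the deletion does cannot be told apart, and the Cre acts only where Cx3cr1 is or was active. The control mice carry the same alleles, so an effect of Cre or of the floxed alleles without tamoxifen is present in both groups.

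Slc3a2, which encodes CD98hc, was not lower in cKO mice. Its level was 358, 264, 233 and 493 CPM (UMIs of the gene scaled to the same total for every mouse) in control mice 1 to 4 and 291, 357, 323 and 309 CPM in cKO mice 5 to 8 (log2 fold change 0.02, standard error [SE] 0.21, adjusted p = 0.976). A count of 3′ ends does not show whether exons were excised, so this level does not check the labels. After filters, 3213 of 5947 barcodes were kept, 83 to 724 per mouse, with 497531 to 3762314 UMIs per mouse. Control mouse 3 (85 cells) and cKO mouse 5 (83 cells) held far fewer cells than the others, and 24 of the 73 marked doublets lay in cKO mouse 5. Cells were clustered without the BCL2 family genes and named from marker genes, which gave monocyte-like, macrophage-like, dendritic cell-like, lymphoid-like and stromal-like groups and 4 clusters named here by their leading genes. Dendritic cell-like, lymphoid-like and stromal-like cells made up 504, 184 and 86 of the 3213 cells, in a sort labelled as monocytes and macrophages.

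BAX and BAK are the proteins that form pores in the outer mitochondrial membrane, through which cytochrome c escapes to activate caspases. The survival proteins hold BAX, BAK and the BH3-only proteins in check, and BH3-only proteins such as BIM and BID release that hold. In myeloid cells, A1 (the product of the Bcl2a1 genes) and MCL1 are known as short-lived survival proteins, and A1 is known to be induced by inflammatory signals.

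The mouse holds several copies of Bcl2a1 on chromosome 9. In GENCODE vM21 on GRCm38 the 3 followed here are the protein-coding genes Bcl2a1a (chr9:88956900-88962419, plus strand), Bcl2a1b (chr9:89199209-89207827, plus strand) and Bcl2a1d (chr9:88723285-88731914, minus strand). Their transcripts of 819, 817 and 863 bases were nearly alike. Bcl2a1a and Bcl2a1b matched at 98.2% of 817 aligned bases, Bcl2a1a and Bcl2a1d at 98.8% of 819, and Bcl2a1b and Bcl2a1d at 99.1% of 817. Of the 443 reads of 58 bases that fit in the last 500 bases of a transcript, 39.3% in Bcl2a1a, 39.3% in Bcl2a1b and 17.8% in Bcl2a1d occurred in that copy alone. Counts of 1 copy are therefore uncertain, and the sum of the 3 is given beside them.

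The promoters of the 3 copies are shown because the copies moved together in the results below. Each runs from 250 bases before to 50 bases after the RefSeq start (GRCm38.p6), 5′ to 3′ on the gene's strand, at chr9:88956670-88956969 (plus), chr9:89199023-89199322 (plus) and chr9:88731801-88732100 (minus). Capitals mark, in order, matches to the AP-1 motif TGANTCA, the PU.1 motif GAGGAAGT and the C/EBP-ATF motif TGATGNAA.
Bcl2a1a: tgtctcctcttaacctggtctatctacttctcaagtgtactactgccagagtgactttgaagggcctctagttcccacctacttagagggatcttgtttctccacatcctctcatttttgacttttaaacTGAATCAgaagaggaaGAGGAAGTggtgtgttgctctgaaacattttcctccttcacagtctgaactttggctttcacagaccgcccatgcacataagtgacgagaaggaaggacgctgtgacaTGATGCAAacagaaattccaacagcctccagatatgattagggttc
Bcl2a1b: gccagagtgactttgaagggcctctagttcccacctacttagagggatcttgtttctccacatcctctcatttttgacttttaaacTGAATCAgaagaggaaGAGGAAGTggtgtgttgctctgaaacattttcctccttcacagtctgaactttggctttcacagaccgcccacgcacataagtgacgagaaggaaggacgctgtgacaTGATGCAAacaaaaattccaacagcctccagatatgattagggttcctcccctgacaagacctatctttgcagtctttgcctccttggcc
Bcl2a1d: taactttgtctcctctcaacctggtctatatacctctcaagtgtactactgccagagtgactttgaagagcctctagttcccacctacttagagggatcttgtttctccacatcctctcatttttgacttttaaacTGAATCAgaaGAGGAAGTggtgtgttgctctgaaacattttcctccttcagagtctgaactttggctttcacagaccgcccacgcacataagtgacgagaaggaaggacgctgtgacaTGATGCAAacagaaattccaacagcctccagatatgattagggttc

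The same 3 motifs stood in the same order in each copy. The AP-1 match began at -120, -164 and -114 from the RefSeq start of Bcl2a1a, Bcl2a1b and Bcl2a1d, the PU.1 match at -104, -148 and -104, and the C/EBP-ATF match at 4, -40 and 4. Among all 32851 promoters of the same length, searched on both strands, the AP-1 letters occurred in 7.81%, the PU.1 letters in 3.2% and the C/EBP-ATF letters in 3.97%. Of the 10 genes, the AP-1 and C/EBP-ATF letters occurred only in the 3 Bcl2a1 copies, and the PU.1 letters also in Bak1. A consensus of the NF-kB motif occurred in 0.411% of all promoters and in none of the 10. The motifs were chosen with these sequences and results known, and a match describes the letters only.

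In all cells summed per mouse, the Bcl2a1 copies outnumbered every other member. They held 71.2% to 79.3% of the members' UMIs in each mouse. UMIs count molecules by their 3′ ends, so levels in CPM were compared between genes without scaling by length. The sum of the copies was 1534, 1495, 2429 and 2749 CPM in control mice 1 to 4 and 2868, 2955, 2826 and 2575 CPM in cKO mice 5 to 8 (2052 ± 634 and 2806 ± 163 CPM, SD, n = 4 each). The cKO mice were close to each other, while control mice 1 and 2 lay low and control mouse 4 reached into the cKO range. The difference of 0.50 on the log2(CPM + 1) scale stands against a pooled SD of 0.32. For each copy at least 1 control mouse reached into or above the cKO values (mouse 4 for Bcl2a1a and Bcl2a1d, mouse 3 for Bcl2a1b), and none passed the test of cKO against control. The log2 fold changes were 0.56 (SE 0.22, adjusted p = 0.168) for Bcl2a1a, 0.61 (SE 0.19, adjusted p = 0.0900) for Bcl2a1b and 0.48 (SE 0.21, adjusted p = 0.226) for Bcl2a1d. Bcl2a1b made up 23.2% of the sum in control mouse 4 and 27.7% to 31.7% in the other mice, and Bcl2a1d 42.9% in control mouse 4.

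Over the same sums, 2 of the 10 genes rose in cKO mice and none fell, where 4.48% of all 11387 genes tested were called in either direction and 2.99% were called higher. One was Bcl2l1, whose product BCL-XL is a survival protein of mitochondria (chr2:152780668-152831728 in GENCODE vM21, minus strand). It stood at 12.5, 8.87, 10.2 and 15.1 CPM in control mice 1 to 4 and at 24.1, 29.6, 17.7 and 18.4 CPM in cKO mice 5 to 8. The groups did not overlap, which held for 4.00% of all genes in this direction. The log2 fold change was 0.98 (SE 0.25, adjusted p = 0.0462), from 274 UMIs in all. The other was Bax, the pore-forming effector (chr7:45461697-45466898, minus strand), at 210, 203, 170 and 251 CPM in control mice and 261, 308, 294 and 308 CPM in cKO mice. Its groups did not overlap either, with control mouse 4 just under cKO mouse 5 (log2 fold change 0.58, SE 0.15, adjusted p = 0.0431).

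Neither call was firm. Without marked doublets, which made up 0.805% of control and 4.3% of cKO cells, the change was 0.85 for Bcl2l1 (adjusted p = 0.114) and 0.56 for Bax (adjusted p = 0.10). Without dendritic cell-like, lymphoid-like and stromal-like cells it was 0.75 (adjusted p = 0.164) and 0.50 (adjusted p = 0.188), and in sums over all cells more cells of a type and more RNA per cell cannot be told apart. When single mice were left out, the log2 fold change stayed between 0.80 and 1.13 for Bcl2l1 and between 0.52 and 0.67 for Bax, but the call of Bcl2l1 was kept without control mouse 4 and lost without any other mouse, and that of Bax was kept without control mouse 4 or cKO mouse 5 and lost without any other. Without control mouse 3, Bcl2a1b (0.79, adjusted p = 0.0273) and Mcl1 (0.74, adjusted p = 0.0472) were called instead, and without control mouse 4 Bcl2a1d (0.71, adjusted p = 0.0382) was called beside Bcl2l1 and Bax. Monocyte markers moved with condition in these sums. All 10 of 10 monocyte markers were detected in every mouse, with a summed level of 1696 to 3561 CPM in control and 7284 to 10874 CPM in cKO mice, and their part in the members' changes was not tested.

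The other members did not pass the test in all cells. Mcl1, the labile survival gene (chr3:95658788-95663176, plus strand), was at 201, 182, 290 and 251 CPM in control mice and 364, 282, 383 and 280 CPM in cKO mice. Control mouse 3 lay above cKO mice 6 and 8 (log2 fold change 0.60, SE 0.19, adjusted p = 0.0955). Bcl2l11, which encodes the BH3-only protein BIM (chr2:128126038-128162547, plus strand), was at 51.8, 33.6, 56.0 and 69.7 CPM against 74.4, 67.1, 99.7 and 63.4 CPM. Again 1 control mouse, mouse 4, lay within the cKO values (log2 fold change 0.65, SE 0.24, adjusted p = 0.150). Bak1, the second effector (chr17:27019810-27029009, minus strand), was the most even member, at 78.0 to 89.2 CPM in control and 76.8 to 84.5 CPM in cKO mice (log2 fold change 0.05, SE 0.13, adjusted p = 0.877). Bid, the BH3-only gene whose product is cleaved by caspase-8 (chr6:120891930-120916853, minus strand), was at 15.3 to 44.4 CPM and 23.0 to 40.2 CPM (log2 fold change -0.03, SE 0.25, adjusted p = 0.976). Bcl2, the founding survival gene (chr1:106538178-106714274, minus strand), was the scarcest together with Bcl2l1, at 7.07 to 18.7 CPM and 7.64 to 23.2 CPM (log2 fold change 0.49, SE 0.39, adjusted p = 0.520). Of the 10 genes 9 had a positive fold change and 7 an unadjusted p under 0.05. The share of all genes at that unadjusted cut is not given, so the count of 7 is a description. It includes the Bcl2a1 copies, which share reads. The median log2 fold change of the 10 genes was 0.57, beside -0.03 over all genes.

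**Figure D1:**
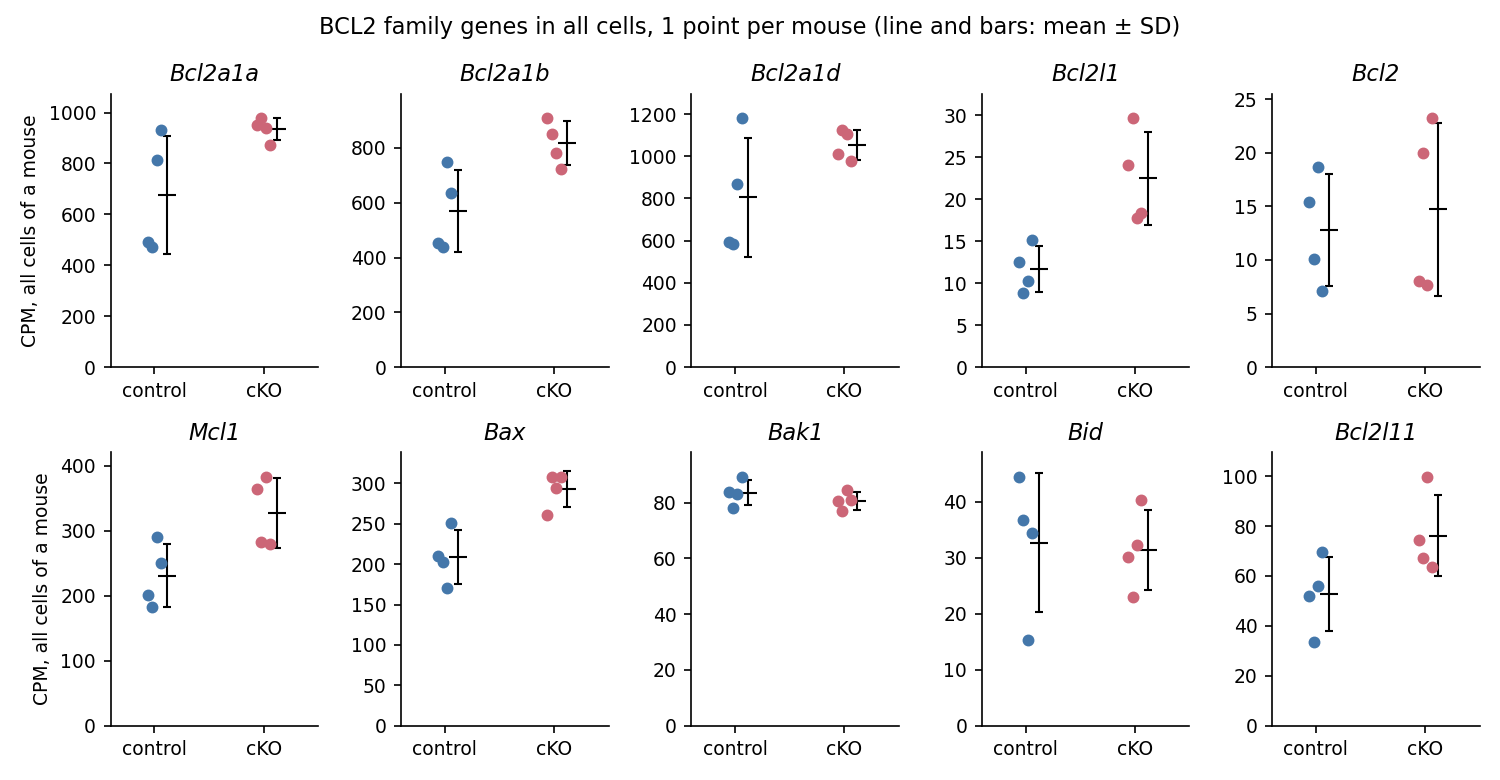
Level of each BCL2 family gene in CPM (vertical axis, linear from 0, a scale of its own per panel) in all cells of a mouse, 1 point per mouse, with mean ± SD for 4 control and 4 cKO mice. The groups do not overlap for Bcl2l1 and Bax, whereas control mouse 4 or 3 reaches into the cKO values for the Bcl2a1 copies, Mcl1 and Bcl2l11.

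The clearest change of the family was in monocyte-like cells, where all 3 Bcl2a1 copies rose in cKO mice. Sums of at least 20 cells were available for control mice 1, 2 and 4 and cKO mice 6, 7 and 8. Control mouse 3 (2 cells) and cKO mouse 5 (15 cells) were not used. The sum of the copies was 508, 245 and 700 CPM in the control mice and 2057, 2085 and 1717 CPM in the cKO mice (484 ± 228 and 1953 ± 205 CPM, SD, n = 3 each), a ratio of means of 4.03. Every cKO mouse lay above every control mouse, as for 8.0% of all genes in these sums, with a wide gap between the highest control mouse (mouse 4) and the lowest cKO mouse (mouse 8).

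Bcl2a1a was at 154, 59.9 and 219 CPM in control mice and 663, 690 and 567 CPM in cKO mice (log2 fold change 2.16, SE 0.36, adjusted p = 0.000175). Bcl2a1b was at 157, 103 and 182 against 617, 587 and 483 CPM (log2 fold change 1.96, SE 0.33, adjusted p = 0.000170). Bcl2a1d was at 197, 81.7 and 300 against 777, 808 and 667 CPM (log2 fold change 1.98, SE 0.35, adjusted p = 0.000362). Thus 3 of the 10 genes rose and none fell, where 0.965% of 11089 genes were called and 0.694% were called higher. The 3 calls share reads and are not independent of each other. The copies also belong to a supplementary gene list that the study drew up from these samples, and that list was left out of the clustering here. The calls were kept when any single mouse was left out (adjusted p up to 0.0109) and with marked doublets left out (log2 fold changes 2.17, 1.99 and 2.0).

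The share of cells with a Bcl2a1 molecule was higher as well. When each cell was thinned to 2000 UMIs, 36.2%, 29.7% and 35.7% of monocyte-like cells held at least 1 Bcl2a1 UMI in control mice 1, 2 and 4, against 73.3%, 62.2%, 57.1% and 56.6% in cKO mice 5 to 8. Without thinning, the shares were 39.7%, 37.8% and 50% against 73.3%, 71.3%, 68.3% and 63.0%, at median depths of 4063 to 5206 and 5011 to 5767.5 UMIs per cell. In stromal-like cells, which should lack these transcripts, the thinned shares were 6.90%, 5.56% and 7.69% in control mice 1, 2 and 4. Without thinning they were 25.8%, 11.1% and 15.4%, at median depths of 4693 to 5631 UMIs. The shares in monocyte-like cells of control mice lay above that background. Stromal-like cells of cKO mice were too few for a share per mouse. Pooled over cKO mice, the share was 6.67% in 15 thinned cells (16.7% of 18 cells without thinning), so the background of single cKO mice was not measured.

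No other member passed the test in monocyte-like cells. Mcl1 was at 197, 272 and 256 CPM in control and 251, 379 and 313 CPM in cKO mice (log2 fold change 0.45, SE 0.25, adjusted p = 0.597). Bax was at 216, 180 and 274 against 282, 282 and 243 CPM (log2 fold change 0.31, SE 0.21, adjusted p = 0.695). Bid was at 68.8, 65.3 and 48.2 against 22.2, 37.3 and 46.7 CPM, with every cKO mouse below every control mouse, as for 8.67% of all genes (log2 fold change -0.68, SE 0.37, adjusted p = 0.589). Bcl2l11 and Bak1 overlapped between the groups, with log2 fold changes of 0.30 (SE 0.34) and -0.04. Bcl2l1 (35 UMIs) and Bcl2 (19 UMIs) were too scarce in these cells for a change of moderate size to be detectable.

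Other features of the monocyte-like cells differed between the same mice, and their part in the Bcl2a1 difference was not tested. The summed level of the monocyte markers (10 of 10 detected) was 11830 to 13066 CPM in control and 16341 to 18293 CPM in cKO mice, but single markers went both ways. Ly6c2, a marker of recently arrived monocytes, was at 1097, 953 and 1212 against 2669, 3317 and 4002 CPM. Ccr2, the chemokine receptor of the sort, was at 1035, 1133 and 860 against 519, 594 and 569 CPM, and F13a1 at 341, 397 and 397 against 264, 252 and 218 CPM. Macrophage markers summed to 4124 to 6754 against 1924 to 2192 CPM, and dendritic cell markers to 468 to 639 against 830 to 1359 CPM. Each of these 2 sums can rest mostly on 1 gene. In control mouse 1, Apoe of the macrophage list was at 6095 CPM. Ifi205 of the dendritic list was at 606 CPM there, and Flt3 at 19.7 CPM. Of 8 neutrophil markers, 3 to 4 were detected in control mice (78.6 to 122 CPM) and 4 to 6 in cKO mice (144 to 263 CPM). Cxcr2 was at 0 in all 6 mice, Retnlg at 0 in 5 and S100a9 at 1.56 CPM or less. Csf3r was at 53.3 to 87.1 CPM in all 6, Ly6g was detected in 5, and G0s2 was at 0, 21.8 and 7.41 CPM in control and 59.9, 93.3 and 157 CPM in cKO mice. Dissociation stress genes summed to 16938 to 18932 against 12014 to 15732 CPM, the mitochondrial share was 1.49% to 1.52% against 1.19% to 1.29%, and marked doublets numbered 0 against 4 to 6 per mouse. EYFP, the reporter of Cx3cr1 activity, fell from 88.2 ± 49.0 to 15.4 ± 11.1 CPM (SD, n = 3 each; log2 fold change -2.60, adjusted p = 0.00734).

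Monocyte-like cells split into 2 finer clusters that the mice held in unequal shares. The cluster led by Pglyrp1 and Cd177 held 87.7%, 91.9% and 65.0% of the monocyte-like cells of control mice 1, 2 and 4, but 73.3%, 64.4%, 18.0% and 48.1% of those of cKO mice 5 to 8, and the rest lay in a cluster led by Dmkn. In the Dmkn cluster the Bcl2a1 sum was 1129 (9 cells), 465 (3 cells) and 1103 CPM (21 cells) in control mice 1, 2 and 4. In cKO mice 5 to 8 it was 2801 (4 cells), 3223 (31 cells), 2401 (168 cells) and 2443 CPM (56 cells), above every control value. In the Pglyrp1 and Cd177 cluster it was 402 (64 cells), 228 (34 cells) and 443 CPM (39 cells) in control mice 1, 2 and 4 and 600 (11 cells), 1387 (56 cells), 304 (37 cells) and 869 CPM (52 cells) in cKO mice 5 to 8. Control mouse 3 had 2 cells there, at 0 CPM. In that cluster cKO mouse 7 lay within the control values and the other 3 cKO mice above them.

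With finer clusters as the cell groups (a Ward tree of 12 clusters), edgeR called none of the 10 genes in any group. The Dmkn cluster had 20 cells in only 1 control mouse and allowed no test. In the Pglyrp1 and Cd177 cluster the log2 fold changes were 1.64 (SE 0.41, adjusted p = 0.0547) for Bcl2a1a, 1.05 (SE 0.39, adjusted p = 0.689) for Bcl2a1b and 1.35 (SE 0.40, adjusted p = 0.206) for Bcl2a1d, each with an unadjusted p under 0.05. How much of the difference in monocyte-like cells lies within the finer clusters and how much in their unequal shares was not tested. With a graph of 10 nearest neighbours in place of the Ward tree, all 3 copies were called in monocyte-like cells. The log2 fold changes were 2.23, 2.04 and 2.0. That graph also split these cells, into a cluster led by Dmkn (51 control and 298 cKO cells) and one with Cd177 and Pglyrp1 among its leading genes (119 and 119 cells). Both were named monocyte-like and summed together, so this fit does not separate the finer clusters.

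**Figure D2:**
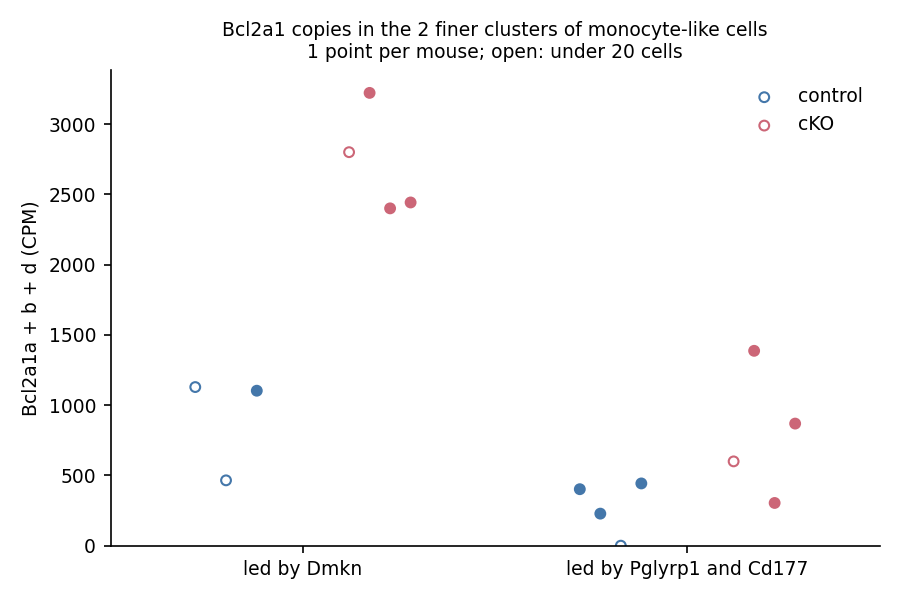
Summed level of Bcl2a1a, Bcl2a1b and Bcl2a1d in CPM (vertical axis, linear from 0) in the 2 finer clusters of monocyte-like cells, 1 point per mouse, open where the mouse had under 20 cells there. In the Dmkn cluster all cKO mice lie above control mice 1, 2 and 4, of which only mouse 4 had 20 cells or more there. In the Pglyrp1 and Cd177 cluster cKO mouse 7, at 304 CPM, lies among the control mice.

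In dendritic cell-like cells the only member that rose was Bax. It was at 200, 222, 195 and 222 CPM in control mice 1 to 4 and at 358, 466 and 397 CPM in cKO mice 6 to 8 (210 ± 14.6 and 407 ± 54.7 CPM, SD, n = 4 and 3). The control mice were close to each other, and every cKO mouse lay far above them, an order that 3.29% of all genes showed. The log2 fold change was 0.85 (SE 0.19, adjusted p = 0.0211), in a comparison where 0.280% of genes were called and 0.262% were called higher. The call was lost in 6 of the 8 fits that left out 1 mouse (log2 fold change 0.76 to 0.88, adjusted p up to 0.418), without marked doublets (0.82, adjusted p = 0.185) and with sums of at least 10 cells (adjusted p = 0.135). Dissociation stress genes summed to 9587 to 10173 CPM in control and 6933 to 9403 CPM in cKO mice, and monocyte markers to 1108 to 1812 and 2007 to 3372 CPM. Their part in the change of Bax was not tested. The Bcl2a1 sum overlapped in these cells, at 1460, 1393, 1851 and 3242 CPM in control and 2549, 3511 and 1279 CPM in cKO mice, with log2 fold changes of 0.26, 0.21 and 0.13 for the 3 copies (adjusted p from 0.945 to 0.988).

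The change of the Bcl2a1 copies in monocyte-like cells minus that in dendritic cell-like cells was 1.90 (SE 0.47) for Bcl2a1a, 1.75 (SE 0.43) for Bcl2a1b and 1.86 (SE 0.46) for Bcl2a1d. By edgeR's interaction contrast none of the 10 genes was called (adjusted p = 0.212 for each copy), where 0.0271% of genes were called and 3 of the 10, the copies, had an unadjusted p under 0.05. limma-voom called none either. Without control mouse 4, Bcl2a1a and Bcl2a1d were called, with differences of 2.02 and 1.95 (adjusted p = 0.0473 each). Against lymphoid-like cells, where 0.0721% of genes were called, the differences were 1.52, 1.54 and 1.46 (adjusted p = 0.847 each).

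In the other groups that could be tested, no member was called by edgeR in the fit over all cell groups. In the cluster led by Saa3 and Ccl24, the Bcl2a1 sum was 2208 and 3538 CPM in control mice 1 and 4 and 4758, 5176 and 6136 CPM in cKO mice 6 to 8, a ratio of means of 1.86 without overlap, where 9.14% of all genes had every cKO mouse above every control mouse. The log2 fold changes were 0.93 (SE 0.37, adjusted p = 0.440), 0.97 (SE 0.33, adjusted p = 0.294) and 0.84 (SE 0.36, adjusted p = 0.536) for Bcl2a1a, Bcl2a1b and Bcl2a1d. Here 0.496% of genes were called and 4 of the 10 had an unadjusted p under 0.05, the copies and Bid. Bid was at 35.4 and 45.3 CPM in control and 11.2, 20.3 and 20.2 CPM in cKO mice (log2 fold change -1.16, SE 0.51, adjusted p = 0.554). With this cluster fitted alone by edgeR, so that the spread came from its own 5 sums, all 3 copies were called (adjusted p = 0.000112, 7.76e-05 and 0.000512). The share of all genes called in that separate fit is not given, so these calls are a description. Dissociation stress genes summed to 19459 to 19857 CPM in control and 10741 to 13443 CPM in cKO mice of this cluster, and monocyte markers to 3605 to 4423 and 5152 to 6753 CPM, and their part in the Bcl2a1 difference was not tested. In the cluster led by Dusp6 and Cyp4f18 the sum was 1749, 1496 and 1682 CPM in control mice 1, 2 and 4 and 2953, 2372 and 2573 CPM in cKO mice 6 to 8, again without overlap, against 7.02% of all genes. The log2 fold changes were 0.62, 0.57 and 0.55 (adjusted p from 0.666 to 0.722), with 0.748% of genes called and 1 of the 10 genes, Bax, at an unadjusted p under 0.05. That gene was at 210, 164 and 220 against 284, 298 and 360 CPM (log2 fold change 0.57, SE 0.21, adjusted p = 0.371), and DESeq2 called it (log2 fold change 0.62, adjusted p = 0.0166).

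In the cluster led by Cebpb and Vegfa the Bcl2a1 sum varied among mice of the same group, at 2400, 1552, 5359 and 3640 CPM in control and 3869, 5529, 3648 and 4841 CPM in cKO mice. Here 0.667% of genes were called, and 2 members, Bcl2l1 and Bcl2, had an unadjusted p under 0.05. Bcl2l1 was at 5.61, 10.7, 0 and 14.4 CPM in control and 19.9, 37.5, 27.9 and 48.2 CPM in cKO mice, without overlap, against 2.1% of all genes, but from 32 UMIs in all (log2 fold change 1.94, SE 0.67, adjusted p = 0.298). In the cluster led by Folr2 and Npl, whose cells were shallow, the sum was 1590, 1488 and 3543 CPM against 2903, 2440 and 3659 CPM, with 0.0361% of genes called and 1 member, Bak1, at an unadjusted p under 0.05 (16 UMIs, log2 fold change -1.68, SE 0.75, adjusted p = 0.814). In lymphoid-like cells the sum was 351, 426 and 436 against 523, 585 and 616 CPM without overlap, against 3.70% of all genes, with 0.0992% of genes called and 1 member, Bcl2, at an unadjusted p under 0.05. Bcl2, known for its role in the survival of lymphocytes, was at 44.8, 78.8 and 43.6 CPM in control and 134, 66.8 and 163 CPM in cKO mice there (log2 fold change 1.18, SE 0.51, adjusted p = 0.683).

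Macrophage-like cells reached 20 cells in 1 cKO mouse only, so no test between conditions was made at that size. Their Bcl2a1 sum was 2028, 2324 and 3370 CPM in the 3 control mice and 2279 CPM in cKO mouse 8. With sums of at least 10 cells, 3 control and 2 cKO mice gave a log2 fold change of -0.56 (SE 0.39, adjusted p = 0.827) for Bcl2a1b by edgeR. Values of the other members in that fit are not given here. The Bcl2a1 sum of cKO mouse 8 thus lay within the control values, while the same sum in monocyte-like cells of that mouse was at 1717 CPM, above 700 CPM in the highest control mouse. Macrophage-like cells thinned to 2000 UMIs held a mean of 2.27 Bcl2a1 UMIs in cKO mouse 7 (17 cells) and 4.96 in cKO mouse 8. The means were 4.05, 4.66 and 7.38 in control mice 1, 2 and 4, all above cKO mouse 7.

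**Figure D3:**
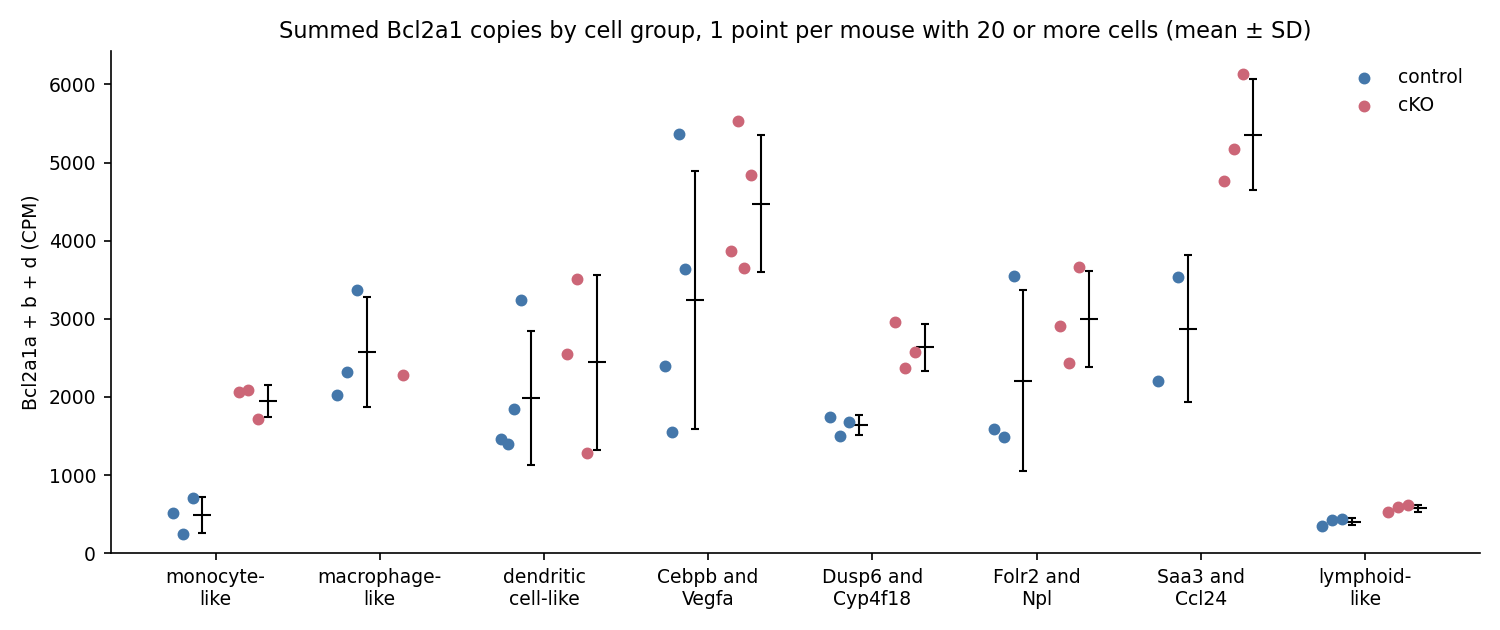
Bcl2a1 sum in CPM by cell group, 1 point per mouse with mean ± SD in control and cKO mice. Monocyte-like control mice lie at 245 to 700 CPM and cKO mice at 1717 to 2085 CPM, whereas the dendritic cell-like groups overlap.

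**Figure D4:**
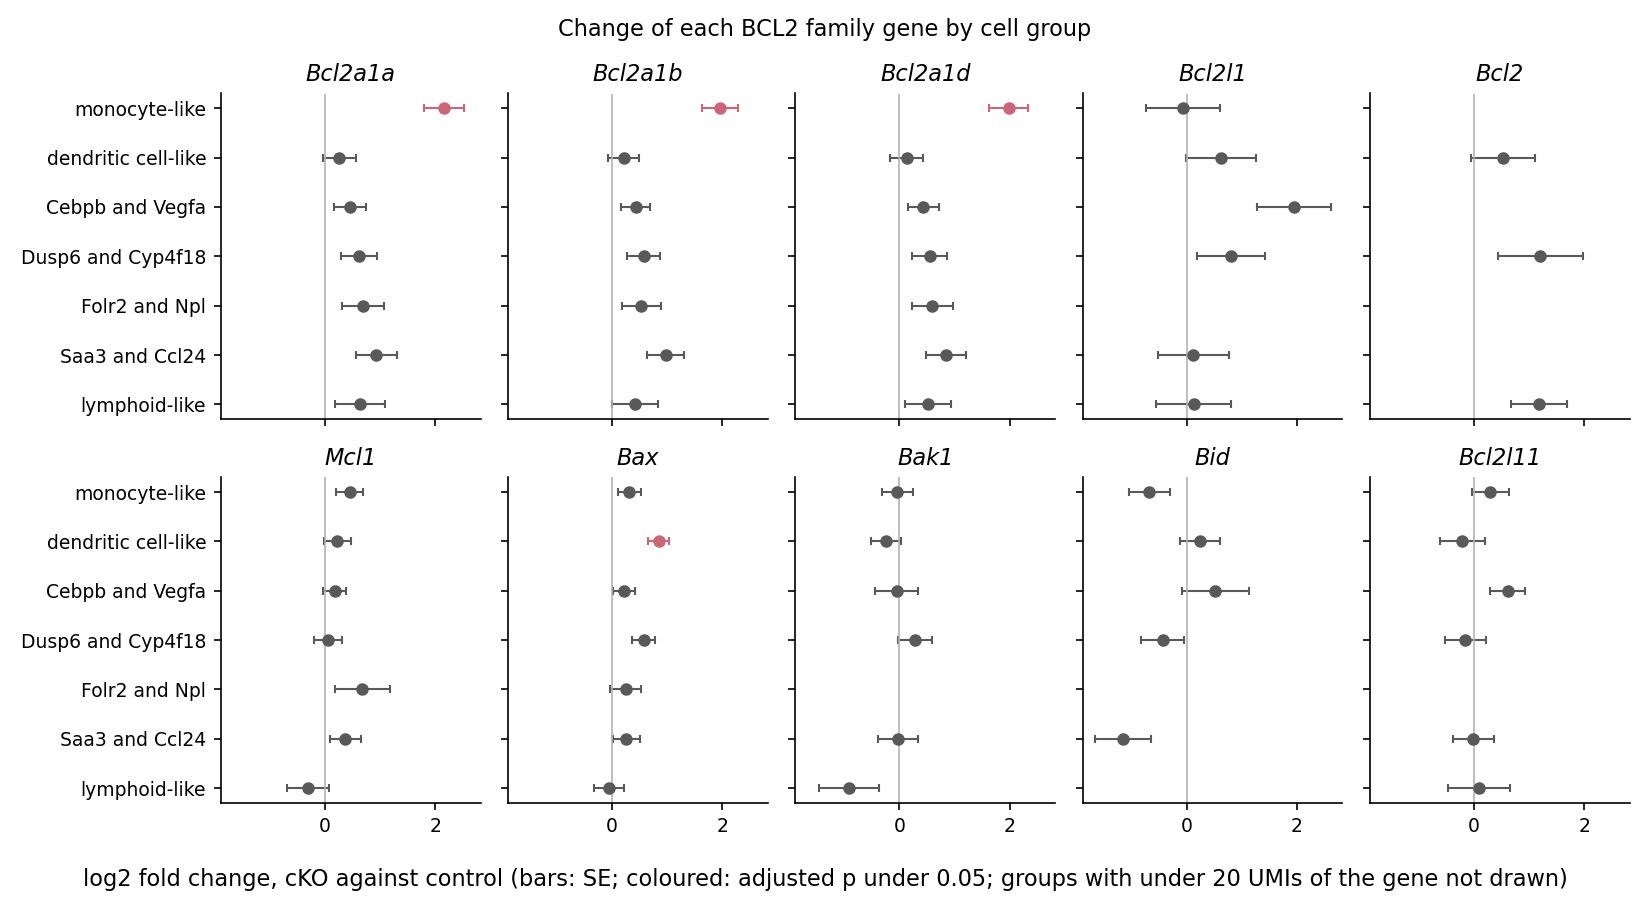
Log2 fold change of cKO against control with its SE for each of the 10 genes in each cell group, where adjusted p under 0.05 is coloured and genes with under 20 UMIs in a group are not drawn. The coloured points are the 3 Bcl2a1 copies in monocyte-like cells, with log2 fold changes of 1.96 to 2.16, and Bax in dendritic cell-like cells, at 0.85.

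The balance of the family was taken as the UMIs of the 6 survival genes over those of the 4 death genes. It is a sum of transcripts, and most of it comes from the Bcl2a1 copies, so it says nothing of the proteins. In all cells the ratio was 4.52, 4.82, 8.48 and 6.80 in control mice 1 to 4 and 7.32, 6.91, 6.33 and 5.88 in cKO mice 5 to 8. Control mice 1 and 2 lay below and control mouse 3 above all cKO mice, and the difference of 0.15 on the log2 scale was smaller than the pooled SD of 0.32. The death genes alone summed to 390, 352, 324 and 445 CPM in control and 446, 475, 511 and 493 CPM in cKO mice (378 ± 52.4 and 481 ± 27.7 CPM, SD, n = 4 each), with every cKO mouse above every control mouse but mice 4 and 5 almost equal. Mean Bax was 209 against 293 CPM and mean Bcl2l11 52.8 against 76.2 CPM. Bak1 (83.5 against 80.6 CPM) and Bid (32.7 against 31.4 CPM) were not higher.

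In monocyte-like cells the ratio was 1.5, 1.37 and 1.82 in control mice and 5.04, 4.65 and 4.14 in cKO mice. On the log2 scale the difference was 1.57, with values of 0.45 to 0.86 in control and 2.05 to 2.33 in cKO mice. Without the Bcl2a1 copies the ratio was 0.456, 0.732 and 0.507 against 0.565, 0.746 and 0.673, and the groups overlapped. The death genes summed to 488, 387 and 534 CPM in control and 459, 534 and 496 CPM in cKO mice and overlapped as well. The copies made up 26.8% to 46.6% of the members' UMIs in control mice and 67.4% to 74.1% in cKO mice.

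In dendritic cell-like cells the ratio overlapped, at 4.07, 3.92, 5.43 and 7.76 in control and 5.29, 5.36 and 2.54 in cKO mice. The death genes alone summed to 398 ± 25.1 CPM (SD, n = 4) in control and 595 ± 86.1 CPM (SD, n = 3) in cKO mice, with every cKO mouse above every control mouse. This mostly repeats the change of Bax, at means of 210 and 407 CPM. The means were 120 and 108 CPM for Bak1, 37.3 and 49.4 CPM for Bid and 31.5 and 30.6 CPM for Bcl2l11. In lymphoid-like cells every cKO mouse had a higher ratio than every control mouse (1.48 to 2.52 in control and 2.78 to 3.70 in cKO mice), as in the Saa3 and Ccl24 cluster (4.43 to 8.18 in 2 control mice and 8.83 to 13 in 3 cKO mice). The macrophage-like cells of cKO mouse 8 had a ratio of 5.08, below the 7.48, 8.30 and 8.82 of the control mice. Their death genes summed to 501 CPM, against 301, 311 and 427 CPM in control mice. Bax was at 334 CPM (181 to 272 in control) and Bid at 76.0 CPM (25.9 to 40.2 in control), while Bak1 and Bcl2l11 lay within the control values. No p-value is given for these sums, since the members were chosen with results of these data known.

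**Figure D5:**
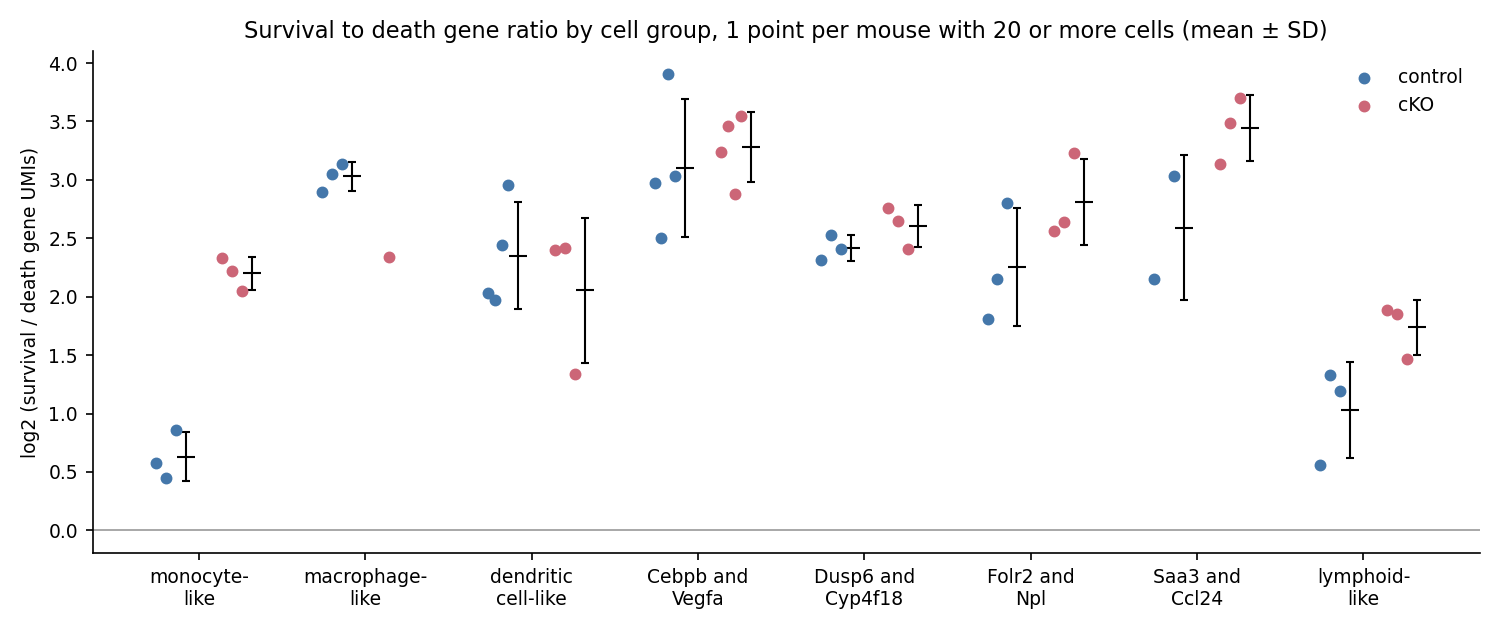
Log2 of the UMIs of the 6 survival genes over those of the 4 death genes by cell group, 1 point per mouse with mean ± SD in control and cKO mice. Monocyte-like cells lie at 0.45 to 0.86 in control and 2.05 to 2.33 in cKO mice, and the groups overlap in dendritic cell-like cells and in the clusters led by Cebpb and Vegfa, by Dusp6 and Cyp4f18 and by Folr2 and Npl.

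The cell groups themselves differed in which member they expressed, a comparison made within mice over both conditions. Monocyte-like cells had less of the Bcl2a1 copies than macrophage-like cells in all 4 mice with both. The log2 differences were -1.35 (SE 0.25, adjusted p = 1.13e-05) for Bcl2a1a, -1.46 (SE 0.24, adjusted p = 1.21e-06) for Bcl2a1b and -1.36 (SE 0.24, adjusted p = 6.28e-06) for Bcl2a1d. Bcl2l1 was lower too (-1.39, SE 0.46, adjusted p = 0.0233). Bak1 was higher, at means over all sums of 112 CPM in monocyte-like and 49.8 CPM in macrophage-like cells (1.29, SE 0.26, adjusted p = 5.53e-05). Thus 4 of the 10 genes were lower and 1 higher, where 20.1% of all 11090 genes were called, 10.5% as lower and 9.61% as higher. Of these 4 mice, 3 were control mice, and without the mouse as a block Bcl2a1b and Bak1 alone were called. The call of Bcl2l1 was lost without control mouse 2 or 4 or cKO mouse 6 or 8 (log2 difference down to -1.07).

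Dendritic cell-like cells also had more Bak1 than macrophage-like cells (1.20, SE 0.24, adjusted p = 4.87e-05). They had less Mcl1 (means over all sums of 137 and 256 CPM, -1.01, SE 0.18, adjusted p = 5.52e-06), less Bcl2a1b (-0.93, SE 0.22, adjusted p = 0.000645), less Bcl2l1 (-1.43, SE 0.42, adjusted p = 0.00533) and less Bcl2l11 (-0.71, SE 0.27, adjusted p = 0.0347). Thus 4 of the 10 genes were lower and 1 higher, where 31.1% of genes were called, 16.3% as lower and 14.8% as higher. Bcl2l11 was the weakest of these, since its call was lost in every fit that left out a mouse other than control mouse 1, and without marked doublets. Bcl2l1 was lost without control mouse 2 (-1.22, adjusted p = 0.0759). Without the mouse as a block, Bcl2l1, Mcl1 and Bak1 were called.

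Monocyte-like cells had more Mcl1 than dendritic cell-like cells in 6 of 6 mice (1.08, SE 0.16, adjusted p = 4.40e-08), and more Bcl2l11 in 6 of 6 mice (1.28, SE 0.22, adjusted p = 1.10e-06). The Bcl2a1 copies were lower in 5 of 6 mice, by -0.94 (SE 0.21, adjusted p = 0.000194) for Bcl2a1a, -0.53 (SE 0.21, adjusted p = 0.0383) for Bcl2a1b and -0.90 (SE 0.21, adjusted p = 0.000286) for Bcl2a1d, with 32.8% of genes called in all, 15.8% as higher and 16.9% as lower. The call of Bcl2a1b was lost without control mouse 1, 2 or 4, and without the mouse as a block Mcl1 and Bcl2l11 alone were called. With 12 clusters of the Ward tree, in which the monocyte-like group is the Dmkn cluster, the difference of Bcl2a1b turned to 0.15 (adjusted p = 0.695). Since the copies changed with condition in monocyte-like cells, these differences are means over both conditions.

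In control mice alone, the levels are given as a description. The Bcl2a1 sum was highest in the Cebpb and Vegfa cluster (3238 ± 1654 CPM, SD, n = 4), then in the Saa3 and Ccl24 cluster (2873 ± 940 CPM, n = 2), macrophage-like cells (2574 ± 705 CPM, n = 3), the Folr2 and Npl cluster (2207 ± 1158 CPM, n = 3), dendritic cell-like cells (1986 ± 861 CPM, n = 4) and the Dusp6 and Cyp4f18 cluster (1642 ± 131 CPM, n = 3). These 6 did not differ from their neighbours in that order beyond their spread. Monocyte-like (484 ± 228 CPM, n = 3) and lymphoid-like cells (404 ± 46.5 CPM, n = 3) lay below them and overlapped each other.

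Mcl1 had its own order. It was highest in the Cebpb and Vegfa cluster (612 ± 140 CPM, lowest mouse 428 CPM), above every mouse of the other groups, whose means were 292 CPM or less, and lowest in the Folr2 and Npl cluster (88.7 ± 39.4 CPM). Bcl2 was highest in lymphoid-like cells (55.7 ± 20.0 CPM), while the means of the other groups were 28.1 CPM or less. Bak1 was highest in dendritic cell-like (120 ± 7.07 CPM) and monocyte-like cells (115 ± 20.1 CPM), which did not differ beyond their spread, and was at 51.2 ± 17.5 CPM in macrophage-like cells. Bax was detected in every group, with means from 162 CPM in stromal-like cells (1 mouse) to 327 CPM in the Folr2 and Npl cluster. Bid was highest in monocyte-like cells (60.8 ± 11 CPM), followed by the Dusp6 and Cyp4f18 cluster (43.7 ± 12.6 CPM), and the 2 overlapped. Bcl2l11 was highest in the Saa3 and Ccl24 (122 ± 27.6 CPM) and Cebpb and Vegfa clusters (98.6 ± 13.8 CPM), which overlapped, and was at 31.5 ± 11.8 CPM in dendritic cell-like cells. Bcl2l1 was at 30.2 ± 13.3 CPM in lymphoid-like and 22.8 ± 8.48 CPM in macrophage-like cells, which overlapped, and at 8.76 ± 3.50 CPM in dendritic cell-like cells.

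Over the 49 sums of a mouse and cell group, each gene's nearest patterns were described by Pearson's r of log2(CPM + 1), with no test, since sums of a mouse share a library. Bcl2a1a and Bcl2a1d had an r of 1.0, Bcl2a1a and Bcl2a1b of 0.92 and Bcl2a1b and Bcl2a1d of 0.91, between genes that share reads. The nearest other gene was Spint1 for Bcl2a1a and Bcl2a1d (0.86 for each) and Lrrc25 for Bcl2a1b (0.83). Mcl1 was nearest to Mapkapk2 (0.88), Picalm (0.87) and Rnf149 (0.87), and Bcl2l11 to Slc2a1 (0.83), Gpr132 (0.83) and Per1 (0.81). Bax was nearest to Atox1 (0.66), Cfp (0.65) and Bcl2a1a (0.65), Bak1 to Psma4 (0.72), Arpc2 (0.71) and Taldo1 (0.69), and Bid to Clec12a (0.75), Nkap (0.64) and Abcf2 (0.63). The scarce genes gave Ogdh (0.66), Rngtt (0.64) and Zfp91 (0.62) for Bcl2l1 and Prr5 (0.74), Vars (0.73) and Mrm3 (0.72) for Bcl2, which in sparse counts say little.

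The rest of the family and of the mitochondrial pathway were counted for comparison. Of 16 further family genes, 14 were in the matrix and 11 were tested in all cells, and none was called by edgeR (1 at an unadjusted p under 0.05). The fourth Bcl2a1 copy, Bcl2a1c, had a log2 fold change of 0.67 (adjusted p = 0.303). Of 24 pathway genes tested, 2 rose and 1 fell in cKO mice. Mdm2, the ubiquitin ligase of p53, was at 44.1, 46.8, 47.5 and 71.7 CPM in control and 135, 87.1, 108 and 84 CPM in cKO mice (log2 fold change 1.04, SE 0.21, adjusted p = 0.0178). Cdkn1a, which encodes the cell cycle inhibitor p21, was at 319, 241, 323 and 603 against 722, 716, 891 and 686 CPM (log2 fold change 1.12, SE 0.25, adjusted p = 0.0269). Birc5, which encodes survivin and is expressed in dividing cells, was at 57.9, 117, 44.1 and 42.1 against 6.03, 34.5, 14.1 and 12.2 CPM (log2 fold change -1.80, SE 0.42, adjusted p = 0.0347), with every cKO mouse below every control mouse, as for 8.34% of all genes.

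Within cell groups, neither list had a called gene in the monocyte-like comparison (1 further family gene, Bcl2a1c, and 2 pathway genes, Cycs and Cdkn1a, at an unadjusted p under 0.05). Bcl2a1c was at 16.4, 0 and 18.5 CPM in control and 59.9, 44.9 and 49.9 CPM in cKO mice. Every cKO mouse lay above every control mouse, as for 8.0% of all genes, and edgeR did not call it (log2 fold change 1.98, SE 0.63, adjusted p = 0.151). How far its reads can be told from those of the other copies was not examined. In dendritic cell-like cells, where Bax rose, Cdkn1a rose as well, from 181 ± 86.3 CPM (SD, n = 4) to 460 ± 224 CPM (SD, n = 3; log2 fold change 1.22, adjusted p = 0.0341), and it was the only pathway gene called there. Between cell groups, 3 of 11 further family genes and 6 of 24 pathway genes were called for monocyte-like against macrophage-like cells, where 20.1% of all genes were called. The largest differences were those of Birc5 (-3.70), Bnip3 (1.45), Casp6 (1.25) and Bcl2a1c (-1.24). For dendritic cell-like against macrophage-like cells 3 of 11 and 11 of 24 genes were called (31.1% of all genes), among them Bcl2l14 (3.64), Birc5 (3.02) and Bcl2l2 (-2.14). For monocyte-like against dendritic cell-like cells 6 of 11 and 10 of 24 genes were called (32.8% of all genes), led by Birc5 (-6.72), Bcl2l14 (-3.11), Bnip3 (2.11) and Dffa (-1.25).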

How the data were processed

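Single-cell RNA sequencing was done on sorted colonic lamina propria cells of 4 control and 4 cKO mice. The authors ran Cell Ranger with STAR 2.5.3a against mm10 plus the EYFP sequence, using Ensembl genes, merged the wells at full depth and deposited the raw UMI count of each gene in each cell. Reads that map to several places were reported at 1 place, per the methods, which bears on the Bcl2a1 copies. All rows name a gene and 0 columns were without a sample.

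Barcodes with at least 2.8 log10 UMIs, 2.6 log10 genes, at most 5% mitochondrial UMIs and no hemoglobin UMI were kept. Cells were normalized by pooled size factors (scran 1.30.0) and clustered by a Ward tree of 9 clusters on 8 principal components, over 11693 genes that left out the BCL2 family, the pathway list and 209 genes of the study's supplementary list. No deposited annotation of cells was used, so cell groups were rebuilt and may differ from the study's. A cluster was named if at least 2 of a type's markers were among its 10 leading genes, at least 3 were detected and its cells were not shallow for their samples. How markers were scored was set after clusters were seen. Doublets were marked by Scrublet (scanpy 1.11.5) and kept, and 8 kept barcode labels occurred in more than 1 mouse.

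UMIs were summed per mouse, or per mouse and cell group from 20 cells, and tested with edgeR 4.0.16 (TMM, glmQLFit, glmQLFTest) under R 4.3.3, with Benjamini-Hochberg adjustment over all genes tested and a threshold of 0.05. Genes needed 1 CPM in 3 sums and detection in 20 cells. Counts at an unadjusted p under 0.05 are descriptions, since no share of all genes at that cut is given. Cell group contrasts came from 1 fit of 44 sums, and comparisons between cell groups from 48 sums with the mouse as a block. In all cells the p-values measure the spread between mice. The cell group fit has no term for the mouse, so sums of the same mouse are treated as independent there. This holds for its interaction contrasts as well. In comparisons between cell groups the p-values measure the spread left within mice. The fits were also run on simulated counts, drawn independently for each sum and with large changes only. That run cannot check how sums of the same mouse depend on each other, or how well smaller changes are found. CPM are of the UMIs of the kept cells. Genes named are the 10 members, Slc3a2, EYFP, called genes of the 2 lists (up to 6 for all cells, up to 4 by size elsewhere) and the 3 nearest patterns of each member. A gene that this rule names is not reported here. Markers, cluster leaders and the further values of Bcl2a1c were named besides. The members and lists were chosen with earlier results of these data known. Alternatives were DESeq2 1.42.0, limma-voom (limma 3.58.1), the edgeR likelihood ratio test, no TMM, no gene filter, no doublets, other cell sets, 12 clusters, a graph clustering (igraph 2.1.4), groups fitted alone and each mouse left out.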

Additional observations from a re-analysis of the deposited data

Results flagged for a closer look

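In 54 sets of 4 mice (a member in a cell group and condition), 2 held a mouse far from the rest, and chance marks about 1 in 20 such sets. Bcl2a1d in dendritic cell-like cells was at 1440 CPM in control mouse 4 and at 579 to 667 CPM in the other control mice. Bcl2 in the Cebpb and Vegfa cluster was at 9.64 CPM in cKO mouse 8 and at 0 in the other cKO mice, among 13 UMIs in all 8 mice.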

How the results depend on the processing

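In all cells, 2 members were called, and 0 without TMM, without marked doublets, without dendritic cell-like, lymphoid-like and stromal-like cells or at an absolute log2 fold change above 1. It was 1 without the gene filter and 1 with all barcodes, and 0 to 3 when single mice were left out. Without TMM the median of all genes moved by -0.11, calls up and down were 270 and 261 in place of 341 and 169, and Bak1 turned to -0.05. Bid (-0.03) ran from -0.16 (without control mouse 3) to 0.15 (without control mouse 1) with mice left out, and to 0.12 without cKO mouse 6. All genes called numbered 510, 1038 by the likelihood ratio test, and 145 to 712 with mice left out. Over cell groups, 4 members were called, where 0.0361% to 0.965% of genes were called per group. The count was 8 with groups fitted alone, 0 with 12 clusters and 3 to 4 with mice left out. Shares of all genes are not given for these other fits, so their counts are descriptions. The difference of changes gave 0, and 0 to 2 with mice left out. Between cell groups 15 were called over 3 comparisons, in which 20.1%, 31.1% and 32.8% of all genes were called. It was 9 with 12 clusters, 7 with no mouse block and 12 to 14 with mice left out, again without shares of all genes. The balance difference was 0.15 (0.01 to 0.32 with mice left out) and that of the Bcl2a1 sum 0.50 (0.37 to 0.66). Without control mouse 3 and cKO mouse 5, a choice made after seeing the data, Bcl2l1 was at 0.95 (adjusted p = 0.0836) and Bax at 0.58 (adjusted p = 0.0456). Of 249 alternative values of uncalled members in monocyte-like and dendritic cell-like cells, 28 changed sign and 0 were called. The cause of these shifts was not tested. No paired analysis was possible because control and cKO mice share no replicate number. Depth limits Bcl2l1 and Bcl2 most, and macrophage-like cells of cKO mice were too few for a test with sums of at least 20 cells.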
